A study of Mus musculus with 4 samples.

Results

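GABA-A receptors are chloride channels opened by GABA, the main inhibitory transmitter of the brain, and the genes described here are 7 of their subunit genes, Gabra2, Gabra3, Gabra4, Gabra5, Gabrb1, Gabrb2 and Gabrd. They were taken by gene symbol from tables of 24421 genes, and each of the 7 was found. The 7 were chosen with earlier results of these data known. The tables come from 4 RNA-seq libraries of mouse brain cells, deposited with a study of ERK signalling and plasticity in mice that model Noonan syndrome, a developmental disorder of the RAS-ERK pathway. The labels name no mutation or treatment for these 4 libraries. Excitatory replicates 1 and 2 hold fluorescent cells positive for αCaMKII, and inhibitory replicates 1 and 2 hold fluorescent cells positive for vGAT. Each library was made from 100 cells picked with a glass pipette. The mice were males of 3 to 5 months from αCaMKII-Cre and vGAT-IRES-Cre colonies kept by breeding to C57Bl/6J. The αCaMKII promoter drives expression in principal neurons of the forebrain, and vGAT is the transporter that loads GABA into vesicles. The brain region is not given in the sources used here, and neither is whether replicates are separate mice. The p-values below therefore measure no more than the scatter among these libraries, and that may be technical scatter.

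A GABA-A receptor is built from several subunits around a pore. GABA binds between an alpha and a beta subunit, so the alpha and beta subunits present set how sensitive and how fast a receptor is. A gamma or a delta subunit usually completes it. Receptors with a gamma subunit gather mostly at synapses and many bind benzodiazepines, while receptors with the delta subunit lie outside synapses and carry a tonic current. Neurons of both the excitatory and the inhibitory kind carry GABA-A receptors.

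The deposited value of a gene is the log2 of its normalized reads, with 0 as the lowest value, so a difference of 1 is a doubling. Each library had 12609 to 12798 genes above 0, and the depth, estimated from the spacing of low values, was 62100000 to 74200000 reads. A read weighed more in the excitatory libraries (spacing 1.288 and 1.222) than in the inhibitory ones (0.72 and 0.876), and the median difference of 13619 genes tested was 0.52, excitatory minus inhibitory. Values called scaled below were brought to a common level by median-of-ratios scaling, after which that median was -0.01. The labels were only partly borne out by marker genes. Camk2a, the gene of αCaMKII, was 16.53 and 16.46 in excitatory libraries, against 15.60 and 15.66 in inhibitory libraries. Its difference was 0.87, or 0.33 in scaled values, which is 1.26-fold (limma adjusted p = 3.18e-04 and 0.00646). Slc32a1, which encodes vGAT, had a listed value of 0 in every library. Gad1 and Gad2, which encode the enzymes that make GABA, had differences of -0.48 and -0.08, neither past limma's test (adjusted p = 0.0649 and 0.824), though Gad1 passed in scaled values (-1.02, adjusted p = 0.00798). Slc17a7, a glutamate transporter of cortical synapses, differed by 0.30 (limma adjusted p = 0.182), and by -0.24 in scaled values (adjusted p = 0.321). Of 7 tested glutamatergic markers, 4 were higher under the excitatory and 1 under the inhibitory label (4 and 2 after scaling). They summed to 0.134% and 0.132% of the excitatory against 0.105% and 0.106% of the inhibitory libraries. Of 8 tested GABAergic markers, 3 were higher under the excitatory and 1 under the inhibitory label (2 and 2 after scaling), and all 11 listed summed to 0.0119% and 0.0109% of the excitatory against 0.00901% and 0.00957% of the inhibitory libraries. Markers of glia were present in every library and differed too. The 8 astrocyte markers made up 2.57% and 2.63% of the excitatory against 2.35% and 2.16% of the inhibitory libraries. By limma 7 of the 8 were higher in excitatory and 0 in inhibitory libraries (4 and 1 after scaling). Among all genes tested the shares were 45% and 26.8%, or 32.3% and 33.5% after scaling. The 7 oligodendrocyte markers made up 3.71% and 3.76% of the excitatory against 5.13% and 5.04% of the inhibitory libraries, a sum made up mostly of Mbp, which had the same value in every library. Without Mbp they made up 0.417% and 0.360% of the excitatory against 0.191% and 0.186% of the inhibitory libraries, and 4 of the 7 were higher in excitatory and 0 in inhibitory libraries by limma (4 and 2 after scaling). The 7 microglia markers made up 0.0303% and 0.0354% of the excitatory against 0.108% and 0.0854% of the inhibitory libraries. Of these, 0 were higher in excitatory and 4 in inhibitory libraries by limma (0 and 6 after scaling). Pdgfra and Cspg4, markers of oligodendrocyte precursors, were listed at 0 in both excitatory libraries, and the 4 markers of that type summed to 0.00372% and 0.00349% of the excitatory against 0.00767% and 0.00942% of the inhibitory libraries. The 4 endothelial markers were at or near 0 throughout, with Cldn5 and Tek at 0 in all 4. The part of these cell types in the results below was not tested, so excitatory and inhibitory name libraries by their labels.

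Levels of most of the 7 subunit genes differed between the labels. Gabra3, Gabra5, Gabrb1 and Gabrb2 were higher in the excitatory libraries in deposited and in scaled values, from 2.84-fold for Gabrb1 to 28.7-fold for Gabra3 as deposited. Gabra2 was higher there in deposited values alone. Gabra4 went the other way, with a listed value of 0 in each excitatory library and values of at least 9.34 in each inhibitory library. Gabrd did not pass the test. So 6 of the 7 genes passed limma's test with Benjamini-Hochberg adjustment over all genes tested, 5 higher in excitatory and 1 in inhibitory libraries. Among all genes tested 71.8% passed in either direction, 45% higher in excitatory and 26.8% in inhibitory libraries. After scaling 5 of the 7 passed, 4 higher in excitatory and 1 in inhibitory libraries, against 65.8%, 32.3% and 33.5% of all genes. With such shares over all genes, the count says little about the 7 genes, and the sizes and directions of single members are described instead. The median absolute difference was 3.30 for the 7 genes and 1.62 for all genes, or 2.76 and 1.51 after scaling. Over the 12 of 19 GABA-A subunit genes that could be tested it was 1.25, or 0.97 after scaling, below that of all genes. The larger value therefore describes these 7 genes, which were chosen with earlier results of these data known, and not the subunit family. In bulk libraries fewer cells of a type and less RNA per cell cannot be told apart.

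**Figure D1:**
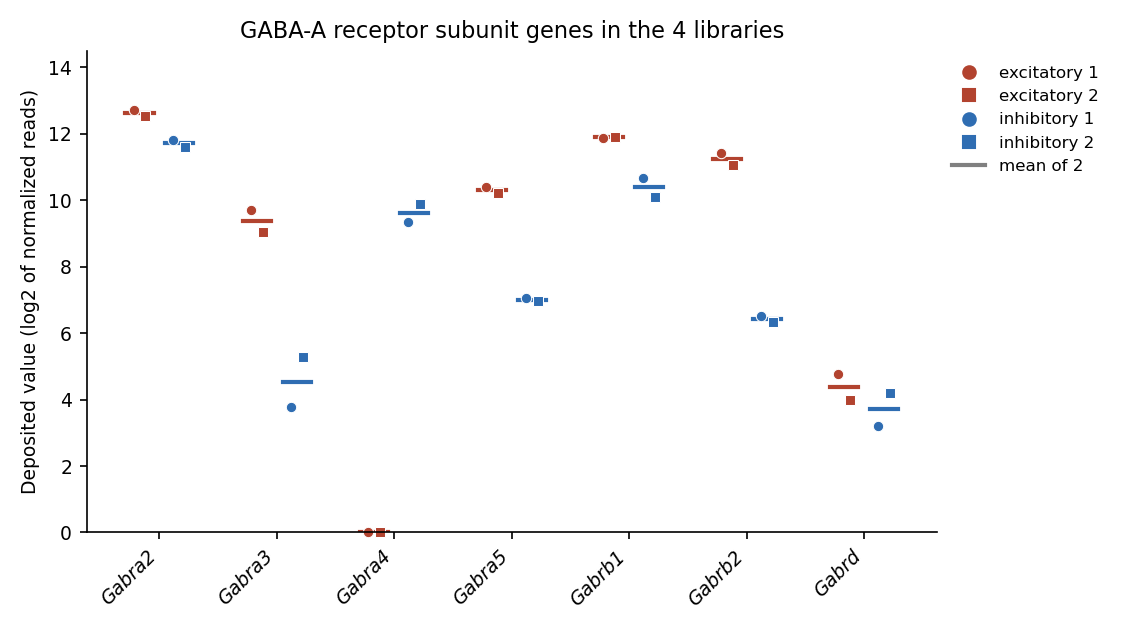
Deposited value (log2 of normalized reads) of each of the 7 subunit genes in excitatory replicates 1 and 2 (red) and inhibitory replicates 1 and 2 (blue), with a bar at the mean of 2 libraries. Gabra4 sits at 0 in both excitatory libraries and at 9.34 and 9.89 in the inhibitory ones, and the groups overlap for Gabrd alone.

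Among the alpha members, Gabra2 had the highest values in every library. The alpha-2 subunit is found at synapses on the cell body and on the axon initial segment of pyramidal neurons. Gabra2 was 12.73 and 12.53 in excitatory libraries, against 11.82 and 11.61 in inhibitory libraries. The groups did not overlap, and they differed by 0.92 (SE 0.16, 95% interval 0.50 to 1.34, limma adjusted p = 0.00557). The median of all genes was 0.52, and in scaled values the difference was 0.38 (95% interval -0.06 to 0.82) and did not pass (adjusted p = 0.102). The estimated reads behind these values, 5264 and 4850 in excitatory and 5008 and 3556 in inhibitory libraries, overlapped. They are not corrected for depth, which was 74200000 estimated reads in inhibitory replicate 1 and 62100000 to 63400000 in the others. The call in deposited values was lost without any 1 of the 4 libraries (adjusted p = 0.0518 to 0.0768).

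Gabra3 and Gabra5 were both much higher in the excitatory libraries. The alpha-3 subunit is known from monoamine neurons and the reticular thalamus and forms receptors that bind benzodiazepines. Gabra3 was 9.70 and 9.05 in excitatory libraries, against 3.77 and 5.29 in inhibitory libraries, a difference of 4.84 (SE 0.62, limma adjusted p = 0.00204) or 28.7-fold. The 2 inhibitory libraries stood 1.53 apart, where the median gap over all genes tested was 0.291, and their values rest on an estimated 19 and 45 reads. In scaled values Gabra3 was 19.8-fold higher in the excitatory libraries (adjusted p = 0.00376). Without either excitatory library the call was lost (adjusted p = 0.0977 without replicate 1, 0.0831 without replicate 2).

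The alpha-5 subunit is typical of hippocampal pyramidal neurons, where much of it lies outside synapses. Gabra5 was 10.39 and 10.22 in excitatory libraries, against 7.06 and 6.95 in inhibitory libraries. The gap between the groups was many times the gap within them, with a difference of 3.30 (SE 0.24, limma adjusted p = 3.50e-04), or 9.84-fold, and 6.78-fold in scaled values (adjusted p = 7.64e-04). The call held without any 1 library (adjusted p 0.0215 to 0.0240). Gabra5 shares 148 bases of exon with the antisense transcript Gm9962, which is 4.98% of its exons, and reads there cannot be assigned since the library kits are not described as marking strand.

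Of the 7 genes, Gabra4 alone was higher in the inhibitory libraries. The alpha-4 subunit pairs with delta outside synapses in the thalamus and the dentate gyrus, and receptors that hold it do not bind classical benzodiazepines. Gabra4 was listed at 0 in excitatory replicates 1 and 2, against 9.34 and 9.89 in the inhibitory libraries, where an estimated 901 and 1084 reads lay behind the values. No fold is given against a listed 0. The limma test gave an adjusted p of 9.49e-05 in deposited and 1.39e-04 in scaled values. Both excitatory values are the floor, so their scatter of 0 does not measure a spread between replicates. The difference was -9.89 without inhibitory replicate 1 and -9.34 without inhibitory replicate 2. In those fits the listed zeros were the only scatter within a group, so they cannot show whether the call is stable. A listed 0 was not read as absence. Among 20 cytosolic aminoacyl-tRNA synthetase genes, which every cell uses, 2 were also at 0 in both excitatory libraries and above 0 in both inhibitory ones, namely Lars (8.88 and 8.33) and Farsa (7.60 and 8.40). That pattern was shown by 1068 of the genes tested (7.84%), and 166 genes were at 0 in both excitatory libraries with at least 9.34 in both inhibitory ones.

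Of the beta members, Gabrb2 differed far more than Gabrb1. The beta-2 subunit is part of the most common receptor of the adult brain. Gabrb2 was 11.42 and 11.05 in excitatory libraries, against 6.50 and 6.34 in inhibitory libraries. It differed by 4.81 (SE 0.26, limma adjusted p = 1.61e-04), a 28.1-fold difference that was 19.4-fold in scaled values, and the call held without any 1 library (adjusted p 0.0184 to 0.0222).

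The beta-1 subunit occurs in hippocampal neurons and also in astrocytes. Gabrb1 was 11.87 and 11.92 in excitatory libraries, against 10.66 and 10.11 in inhibitory libraries, a difference of 1.51 (SE 0.24, limma adjusted p = 0.00417) or 2.84-fold. In scaled values it was 1.96-fold higher in the excitatory libraries (adjusted p = 0.0300). This call, too, needed both excitatory libraries (adjusted p = 0.104 without replicate 1, 0.108 without replicate 2). Within a library, and so whatever the scaling, Gabrb1 minus Gabrb2 was 0.44 and 0.87 in excitatory libraries, against 4.15 and 3.77 in inhibitory libraries.

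Most subunit genes lie in clusters, and 4 of them are neighbours on chromosome 5. In GENCODE M21 (GRCm38) Gabrg1, Gabra2, Gabra4 and Gabrb1 follow each other there. Gabra2 spans chr5:70957597-71095849 on the minus strand and Gabra4 spans chr5:71569749-71658308 on the minus strand. Gabrb1 spans chr5:71658113-72149037 on the plus strand, head to head with Gabra4, and the genes overlap by 196 bases, of which 46 are exon in both. These 46 bases are 0.756% of the Gabra4 exons. The RefSeq start sites of the pair lie 387 bases apart. Gabrb1 was higher in the excitatory libraries, while Gabra4, with its start site next to that of Gabrb1, was listed at 0 there, a value that is not read as absence. Gabrg1, the gene of the gamma-1 subunit, was 12.70 and 12.42 in excitatory libraries, against 11.59 and 11.53 in inhibitory libraries, a difference of 1.0 (limma adjusted p = 0.00425, and 0.0498 in scaled values).

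The 250 bases before the RefSeq start sites of this pair (GRCm38.p6) are shown because the genes share one short stretch of genome and had differences of opposite sign in these tables, and those of Gabrb2 because it differs more than Gabrb1. Gabra4 is given from chr5:71658309-71658558 (minus strand), Gabrb1 from chr5:71657671-71657920 (plus strand) and Gabrb2 from chr11:42420190-42420439 (plus strand), each 5′ to 3′ with motif matches in capitals. The motifs searched on both strands were the TATA box (TATAAA), the GC box (GGGCGG), the CCAAT box (CCAAT), the cyclic AMP response element (TGACGTCA) and the EGR site (GCGNGGGCG).
Gabra4: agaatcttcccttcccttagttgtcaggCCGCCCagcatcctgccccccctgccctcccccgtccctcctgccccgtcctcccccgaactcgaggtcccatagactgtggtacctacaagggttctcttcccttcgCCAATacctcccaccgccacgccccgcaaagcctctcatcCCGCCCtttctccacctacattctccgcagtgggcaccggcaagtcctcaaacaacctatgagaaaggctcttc
Gabrb1: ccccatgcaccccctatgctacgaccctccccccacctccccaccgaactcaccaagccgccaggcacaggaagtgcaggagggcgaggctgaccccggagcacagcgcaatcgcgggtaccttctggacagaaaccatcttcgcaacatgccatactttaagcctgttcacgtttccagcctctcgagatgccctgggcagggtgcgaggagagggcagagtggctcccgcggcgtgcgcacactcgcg
Gabrb2: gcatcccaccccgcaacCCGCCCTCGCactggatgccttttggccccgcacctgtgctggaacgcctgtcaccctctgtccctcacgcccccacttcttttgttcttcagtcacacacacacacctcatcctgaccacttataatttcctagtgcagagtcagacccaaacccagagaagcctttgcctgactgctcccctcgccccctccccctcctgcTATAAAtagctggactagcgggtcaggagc
The Gabra4 window held 2 GC boxes and 1 CCAAT box and no other motif, and the Gabrb1 window held none of the 5. Before the first Gabrb2 start site there was 1 TATA box, and 1 GC box that overlapped 1 EGR site. The windows of the other 2 Gabrb2 start sites, with 54.0% and 36.8% G and C, held none of these 3 motifs, and that of the other Gabrb1 start site held none of the 5. Of 32851 promoter windows of this length 32.7% hold a GC box, 33.8% a CCAAT box, 12.4% a TATA box, 4.70% an EGR site and 1.55% a cyclic AMP response element. The G and C content was 61.2% before Gabra4, 64.4% before the first start site of Gabrb1 and 58.8% before that of Gabrb2, against a median of 52.4% over all windows. The promoter table matched 6 of the 7 genes, all but Gabrd, with 10 start sites. The windows before the Gabra3 start sites overlap each other and had 42.4% and 39.2% G and C and no CpG. Both held the same single TATA box match, on the opposite strand, and neither held a GC box. The Gabra2 window had 70.0% G and C with 18 CpG.

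Gabrd, the gene of the delta subunit that makes receptors sensitive to low GABA and to neurosteroids, had low values throughout. It was 4.76 and 4.0 in excitatory libraries, against 3.22 and 4.2 in inhibitory libraries, resting on an estimated 21 and 13 reads under the excitatory and 13 and 21 under the inhibitory label. The groups overlapped. The difference was 0.67 (95% interval -0.74 to 2.08, limma adjusted p = 0.307), and this interval leaves the direction undetermined.

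**Figure D2:**
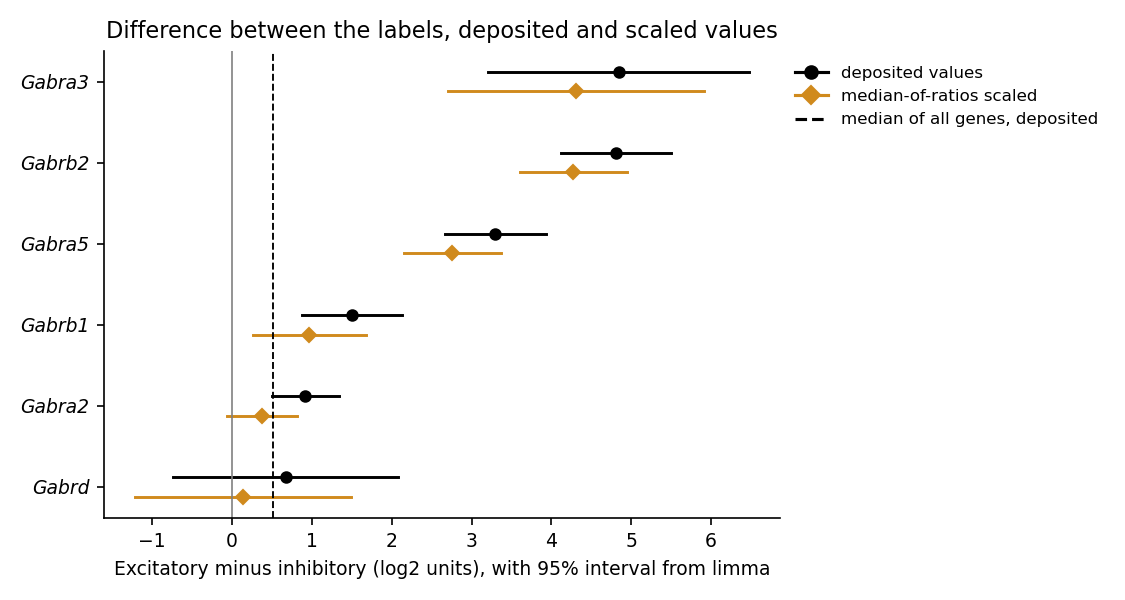
Excitatory minus inhibitory difference (log2 units) with its 95% limma interval for 6 subunit genes, in deposited values (black circles) and after median-of-ratios scaling (orange diamonds), with the median of all genes in deposited values dashed at 0.52. Scaling moves each gene down by the same amount, which puts the interval of Gabra2 across 0, and Gabra4 is left out since it is listed at 0 in both excitatory libraries.

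Ratios of subunits within a library do not depend on how libraries were scaled. Of 21 pairs of members 15 had no listed 0. In 12 of these the 2 excitatory ratios did not overlap the 2 inhibitory ratios. Among single genes tested 86.4% did not overlap between the groups, but single values carry the shift of all genes and ratios do not. Pairs that share a gene are not independent, and no share over ratios of all genes was computed. With 2 libraries against 2, an exact permutation test cannot give a two-sided p below 0.333, so the ratios are described only. Gabra2 minus Gabra5 was 2.34 and 2.32 in excitatory libraries, against 4.76 and 4.65 in inhibitory libraries. Gabra2 minus Gabrb1 lay closer together, at 0.86 and 0.62 in excitatory and 1.16 and 1.49 in inhibitory libraries. Gabra3 minus Gabrb2 overlapped, at -1.73 and -2.0 in excitatory and -2.73 and -1.05 in inhibitory libraries.

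Levels were set side by side after division by exon length, taken as the union of annotated exons, in normalized reads per kilobase. In the excitatory libraries Gabra2 led with 832 ± 78.95 per kilobase (SD, n = 2). Gabra5 (426 ± 36.3) and Gabrb2 (382 ± 69.7) came next and overlapped, followed by Gabrb1 (275 ± 6.86), Gabra3 (173 ± 53.6) and Gabrd (7.503 ± 2.74), each apart from its neighbour, and by Gabra4 at 0. In the inhibitory libraries Gabra2 led again with 440 ± 45.4 per kilobase (SD, n = 2). Gabra4 (107 and 156) and Gabrb1 (98.3 ± 26.0) overlapped, as did Gabra3 (6.74 ± 4.62) and Gabrd (4.81 ± 2.22) at the low end, with Gabra5 (43.2 ± 2.18) and Gabrb2 (13.5 ± 1.06) between them. With the longest transcript as the length, Gabrb2 came before Gabra5 in the excitatory libraries, and neither that pair nor Gabra4 and Gabrb1 overlapped. Per kilobase, Gabra2 lay above 72.7% and 71.3% of detected genes in excitatory and 68.7% and 66.3% in inhibitory libraries. Gabrb2 lay above 61.2% and 57.3% of detected genes in the excitatory but only 22.8% and 20.9% in the inhibitory libraries.

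Alpha subunits are alternatives for the same place in a receptor, so the transcripts of the 4 alpha members were also read as shares of their own sum per kilobase. Gabra2 held the largest of these shares in every library, at 58.2% ± 1.35 in excitatory and 70.8% ± 6.39 in inhibitory libraries (SD, n = 2 each). Gabra5 made up 29.8% ± 0.985 in excitatory and 6.96% ± 0.261 in inhibitory libraries. For Gabra3 it was 11.97% ± 2.34 in excitatory and 1.09% ± 0.758 in inhibitory libraries. Gabra4 made up 17.0% and 25.4% in the inhibitory libraries. Of the sum of Gabrb1 and Gabrb2, Gabrb2 held 58.0% ± 5.07 in excitatory and 12.3% ± 2.04 in inhibitory libraries. Transcript shares are not shares of assembled receptors. The Gabra2 share did not overlap between the labels after division by length, but with no division by length it did, at 75.7% and 77.5% in excitatory and 81.9% and 73.7% in inhibitory libraries.

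**Figure D3:**
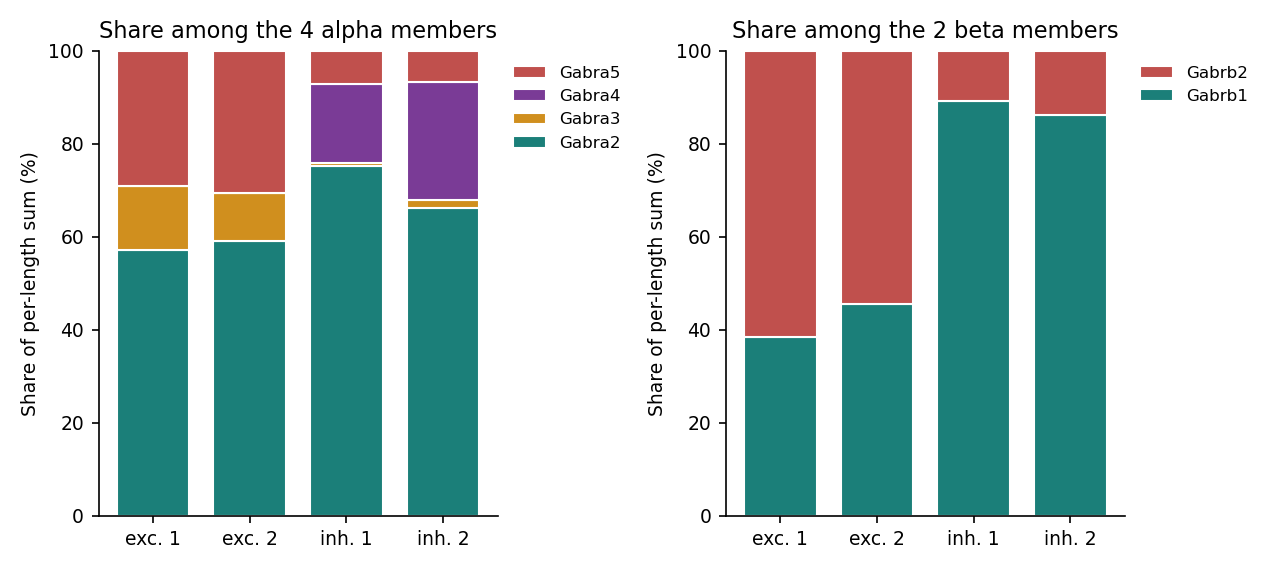
Share (%) of each of the 4 alpha members in their summed level, and of Gabrb1 and Gabrb2 in theirs, in normalized reads per kilobase of exon, for excitatory replicates 1 and 2 and inhibitory replicates 1 and 2. Gabra2 fills 57.2% to 75.3% of the alpha bar, Gabra5 and Gabra3 take less of it in the inhibitory libraries, where Gabra4 is present, and Gabrb2 fills 61.5% and 54.4% of the excitatory against 10.9% and 13.8% of the inhibitory beta bars.

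The other members lie on 4 other chromosomes. Gabrb2 spans chr11:42419757-42629028 on the plus strand, in a cluster with Gabra6, which was listed at 0 in all 4 libraries. Gabra5 spans chr7:57407672-57510059 on the minus strand, in a cluster with Gabrg3, which was also listed at 0 throughout. On the X chromosome Gabra3 spans chrX:72432681-72656848, and its neighbour Gabrq was 3.37 and 3.30 in excitatory libraries, against 2.69 and 2.97 in inhibitory libraries (limma adjusted p = 0.265). Gabrd lies apart from the clusters, at chr4:155384980-155398112. Gabre, Gabrr1, Gabrr2 and Gabrr3 were listed at 0 in all 4 libraries, and Gabrp had 0.24 in excitatory replicate 2 and 0 elsewhere. Of the 12 subunit genes outside the 7 members 5 could be tested. Of these 2 were higher in excitatory and 0 in inhibitory libraries, beside 45% and 26.8% of all genes. After scaling the counts were 2 and 1, beside 32.3% and 33.5% of all genes. By limma 0 were higher in the inhibitory libraries as deposited at an unadjusted p under 0.05 as well, and no other tool was run.

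**Figure D4:**
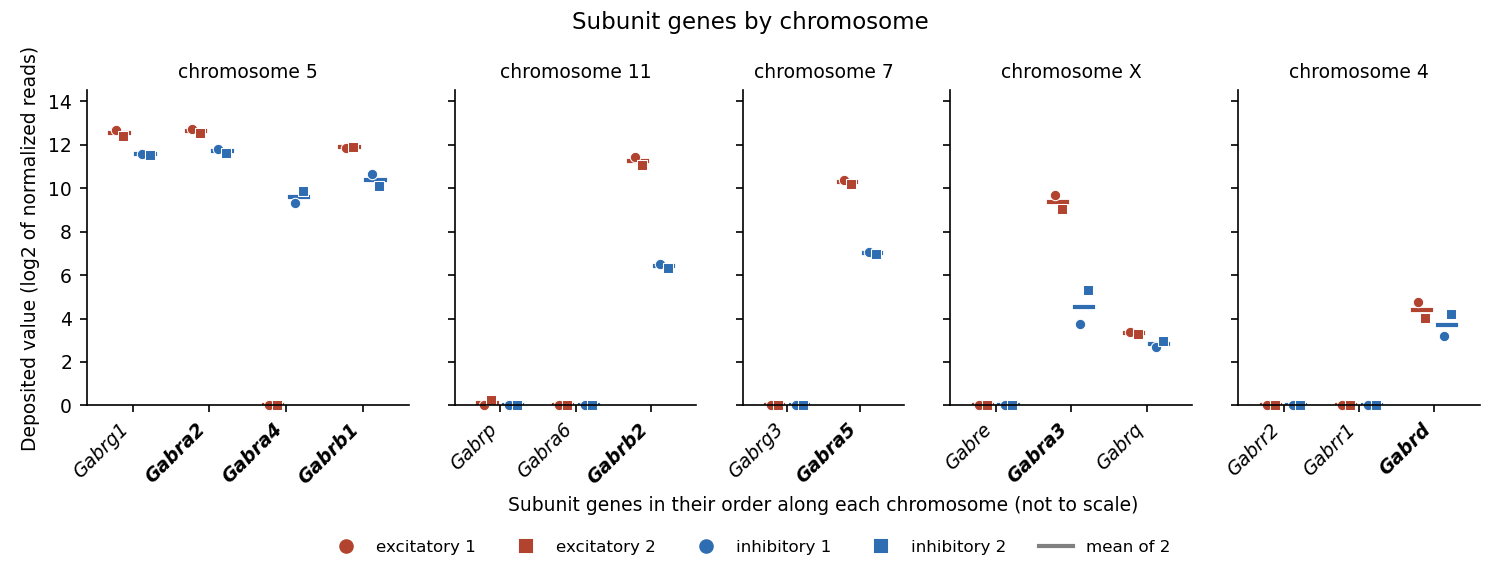
Deposited value (log2 of normalized reads) of 15 subunit genes in excitatory (red, left) and inhibitory (blue, right) libraries, in their order along chromosomes 5, 11, 7, X and 4, with the 7 members in bold. Within the chromosome 5 cluster Gabra4 is at 0 in both excitatory libraries between Gabra2 and Gabrb1, which are higher there, and on chromosome 11 Gabrb2 differs by 4.81.

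Genes listed under receptor anchoring, not all of which act at the synapse, were called about as often as all genes. Of 18 anchoring genes tested 8 were higher in excitatory and 5 in inhibitory libraries, beside 45% and 26.8% of all genes, with a median difference of 0.37 beside 0.52 for all genes. After scaling the counts were 6 and 7, beside 32.3% and 33.5%. Clptm1, a protein that limits receptor export from the endoplasmic reticulum, was 12.08 and 11.58 under the excitatory and 7.11 and 7.48 under the inhibitory label. Mdga1, a partner of neuroligins, was 7.86 and 8.69 under the excitatory and 3.98 and 4.45 under the inhibitory label. Both passed limma's test (adjusted p = 2.43e-04 and 0.00117). Lhfpl3, a relative of the receptor partner Lhfpl4, was 2.39 and 2.89 in excitatory libraries, against 11.13 and 11.70 in inhibitory libraries.

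Calls for genes of receptor transport and turnover depended on the scaling, as those of all genes did. Of 21 tested 13 were higher in excitatory and 2 in inhibitory libraries as deposited, beside 45% and 26.8% of all genes, and 6 and 4 after scaling, beside 32.3% and 33.5%. The median difference was 0.56 as deposited. The ubiquitin ligase gene Huwe1 was 12.89 and 12.81 in excitatory libraries, against 10.71 and 11.07 in inhibitory libraries. The kinesin gene Kif5a was 1.92-fold and the kinase gene Prkcb 2.22-fold higher in the excitatory libraries (1.32-fold and 1.53-fold in scaled values), each past limma's test in both. Arfgef2, an exchange factor in vesicle transport, had a listed 0 in each excitatory library and 8.495 and 8.80 in the inhibitory ones, the same pattern as that of Gabra4.

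For each member, the gene with the most similar values was taken as the one whose largest difference from it over the 4 libraries was smallest, among 12434 genes. For Gabra2 this was Sdc4, a syndecan gene, within 0.102 in every library, and for Gabra4 it was Eaf2, a transcription elongation factor gene, within 0.028. Rnf145 was nearest to Gabrb1 (0.215), Max to Gabra5 (0.205), Gucy1b3 to Gabrb2 (0.227), Pld6 to Gabrd (0.208) and Dusp11 to Gabra3 (0.367). How many genes came close differed between members. Within 0.5 in every library lay 246 genes for Gabra2 and 64 for Gabra4, but 7 for Gabrb2 and 2 for Gabra3. With 4 libraries such likeness describes these values only.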

How the data were processed

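RNA from 4 libraries of 100 cells was measured by RNA-seq. Per the labels' protocols, cDNA was made with the SMART-seq v4 kit and libraries with the Nextera XT kit. Per the submitters' processing notes TopHat, edgeR and mm10 were used, and their roles and versions are not stated there. The authors deposited log2 values. They are log2 of normalized reads with no added 1 and a floor of 0: 88.1% to 100% of low values were whole multiples of 1 spacing after 2 to the power of the value (tolerance 0.1 spacings), against 29.0% to 59.2% after subtracting 1. Where the spacing is below 1, in the inhibitory libraries, a single read is listed as 0. The values lie in bands around these multiples and not exactly on them, so whole reads could not be recovered, and estimated reads (2 to the power of the value, divided by the spacing) are approximate, with no interval.

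In R 4.3.3, limma 3.58.1 with a mean-variance trend was fitted to the 13619 genes that reached 1 in 2 or more libraries. P-values were adjusted by Benjamini-Hochberg over these genes, with 0.05 as the threshold. Since the values hold no added 1, scaling alternatives acted on 2 to the power of the value and kept the floor at 0, and pseudocounts were added to those linear values. Count tests were planned only for recovered whole reads and were not run. Lengths came from GENCODE M21, the build of mm10 (95.7% of genes matched). Insyn1 and Insyn2a were matched by older symbols. Genes named were the 7 members, the other GABA-A subunits, 5 label genes, up to 4 genes past the threshold of each partner list by smallest p, and the nearest gene of each member, with predicted genes, RIKEN clones and pseudogenes left out. Not every gene covered by the rule is reported here, though list counts include them all. Shares were therefore taken of the sum of the members alone, not of all alpha subunits as planned. Lars and Farsa were chosen after their values were seen. Also named, outside the choice by smallest p, were Slc12a5, which did not pass the threshold, and single glial and endothelial markers. The members and lists were chosen with earlier results of these data known. The fit was tested on simulated data with normal scatter, in which only genes with high values were given a difference. That cannot test listed zeros or values near the floor. Same-numbered replicates did not deviate together (correlation -0.00193 across genes), so the numbers were not treated as pairs.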

Additional observations from a re-analysis of the deposited data

How the results depend on the processing

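Over all alternatives run, Gabra4, Gabra5 and Gabrb2 kept their direction and their side of the threshold in 14 of 14, and Gabrd did in 13 of 13, with no value under the stricter filter, which it failed. Gabra2 did not pass after median-of-ratios (0.38), upper-quartile (0.40) or equal-total scaling (0.37); the cause was not tested, and each of these removes the shift of all genes. Leaving out 1 library at a time gave differences of 0.81 to 1.02 for Gabra2, 4.08 to 5.61 for Gabra3 and 1.23 to 1.78 for Gabrb1, with fewer samples in each fit and the lone sample of a group assumed to vary like the other group. It left 6103 to 6551 of 9777 genes past the threshold in all and 20 to 23 of 36 partner genes. For Gabra4, the fits without 1 inhibitory library had listed zeros as their only scatter within a group and could not test its call. The replicate block changed no call among the members and gave 9782 genes past the threshold. The share of Gabra2 among the 4 alpha members in the excitatory libraries was 62.3% with the longest transcript and 76.6% with no division by length, against 58.2% with the union of exons, and in the inhibitory libraries it was 77.8% with no division by length, against 70.8%. Among per-length levels and shares of single genes under other lengths or scaling, 18 moved by more than the spread between replicates and 22 did not. No difference of a member changed sign. Over all genes the majority of calls did turn with scaling. As deposited 6122 were higher in excitatory and 3655 in inhibitory libraries, and the counts were 4401 and 4562 after median-of-ratios, 4473 and 4540 after upper-quartile and 4399 and 4609 after equal-total scaling, and the anchoring list turned likewise. The edgeR and DESeq2 alternatives were not run, since whole reads could not be recovered. Leaving aside listed zeros, the fewest estimated reads lay behind Gabrd, and behind Gabra3 in the inhibitory libraries.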

Other observations

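Genes that set the chloride gradient on which GABA-A receptors act were examined as a list. Of 6 tested, 5 were higher under the excitatory and 0 under the inhibitory label, beside 45% and 26.8% of all genes. After scaling the counts were 3 and 0, beside 32.3% and 33.5% of all genes. By limma 0 were higher in the inhibitory libraries at an unadjusted p under 0.05 too, and no other tool was run. The sixth, Slc12a5, which encodes the cotransporter that exports chloride in mature neurons, differed by 0.38 (adjusted p = 0.167). Slc12a2, which encodes the cotransporter that brings chloride into cells, was 12.20 and 11.74 in excitatory libraries, against 4.69 and 5.83 in inhibitory libraries (limma adjusted p = 3.14e-04), 104-fold higher as deposited and 72.0-fold in scaled values. The kinase genes Wnk3 (6.76-fold) and Oxsr1 (3.51-fold), which regulate this cotransporter, were also higher in the excitatory libraries and passed in scaled values. Stk39, the gene of a related kinase, was 1.97-fold higher as deposited and did not pass in scaled values (adjusted p = 0.0968).

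Among the other chloride-permeable receptors, only the glycine receptor gene Glrb could be tested of 5. It was 12.91 and 12.80 in excitatory libraries, against 11.85 and 12.35 in inhibitory libraries, 1.69-fold as deposited (limma adjusted p = 0.0254) and 1.16-fold in scaled values (adjusted p = 0.339).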
